A study of Mus musculus with 8 samples.

Results

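Cholesterol and fatty acid synthesis genes were followed in CD4+ T cells with and without Irak1, the interleukin-1 receptor-associated kinase that passes signals from interleukin-1 and Toll-like receptors. The group was given as a list of 31 genes chosen by function. Of these, 28 were found on a probe set that carries 1 gene symbol, out of 22180 genes so found in all, and 27 passed the filter on low levels. Scd1 was below the filter, Idi1 and Scd2 lie only on probe sets shared by several symbols, and Acat2 was not analysed here. Where a gene had several such probe sets, which held for Scap, the one with the highest mean was used.

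The 8 arrays came from 4 cotransfer experiments in mice, all of the C57BL/6 strain by the labels. In each experiment CD4+CD62L+ T cells of both genotypes, wt cells marked by CD45.1 and as many Irak1-/- cells marked by CD45.2, were given intraperitoneally to the same Rag1-/- mice, which lack T and B cells of their own, a transfer that the labels describe as inducing colitis. At day 14 the cells were sorted from the mesenteric lymph nodes by CD3, CD4 and the CD45 form, to a stated purity above 99.5%, and cells from 2 recipients were pooled. Each experiment therefore gave 1 wt and 1 Irak1-/- array from the same hosts, a pair, and the genotype of the cells goes with their CD45 form throughout, so the effects of these cannot be told apart. Neither the age of the mice nor the number of cell donors is stated in the labels. The p-values for genotype measure the spread between these 4 pairs, which the method draws toward a spread shared by all genes.

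Cells build cholesterol from acetyl-CoA through mevalonate, squalene and lanosterol, and build fatty acids from the same acetyl-CoA through malonyl-CoA. Transcription of most of these enzymes is driven by the SREBP factors (genes Srebf1 and Srebf2), which leave the endoplasmic reticulum with Scap when sterols are scarce and are held back there by Insig1 and Insig2 when sterols are plentiful. In T cells the programme is known to be switched on after antigen stimulation, when growing cells need membrane.

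SREBP factors bind sterol regulatory elements and E-boxes in promoters, commonly beside sites for NF-Y and Sp1. Promoter windows of 300 bases, from 250 before to 50 after the start, were taken from RefSeq (GRCm38.p6) for 23 of the genes. The windows of 4 genes whose levels moved together across the arrays, and of Acly, whose level did not follow them, are printed 5′ to 3′ on the gene's strand. Capitals mark matches on either strand to CACNCCAC or TCACNCCAC (like a sterol regulatory element, the longer form containing the shorter), CACGTG (an E-box) and CCAAT (the NF-Y box).
Hmgcs1: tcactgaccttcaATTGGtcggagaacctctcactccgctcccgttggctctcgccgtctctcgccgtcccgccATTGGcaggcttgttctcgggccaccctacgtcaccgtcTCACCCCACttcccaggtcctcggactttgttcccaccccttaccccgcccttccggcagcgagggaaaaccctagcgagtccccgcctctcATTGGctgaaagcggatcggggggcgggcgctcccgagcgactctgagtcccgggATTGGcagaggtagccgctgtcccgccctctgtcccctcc
Cyp51: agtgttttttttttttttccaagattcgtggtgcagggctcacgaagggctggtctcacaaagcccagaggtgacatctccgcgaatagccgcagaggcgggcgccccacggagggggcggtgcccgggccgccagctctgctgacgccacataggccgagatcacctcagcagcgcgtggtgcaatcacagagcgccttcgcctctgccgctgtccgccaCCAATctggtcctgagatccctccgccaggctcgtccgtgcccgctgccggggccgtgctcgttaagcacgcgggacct
Sc5d: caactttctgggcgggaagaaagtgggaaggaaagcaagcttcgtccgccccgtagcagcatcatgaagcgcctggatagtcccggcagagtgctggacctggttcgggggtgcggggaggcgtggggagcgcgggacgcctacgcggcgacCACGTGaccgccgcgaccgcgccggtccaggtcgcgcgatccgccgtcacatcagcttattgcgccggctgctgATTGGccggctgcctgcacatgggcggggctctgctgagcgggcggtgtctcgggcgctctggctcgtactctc
Insig1: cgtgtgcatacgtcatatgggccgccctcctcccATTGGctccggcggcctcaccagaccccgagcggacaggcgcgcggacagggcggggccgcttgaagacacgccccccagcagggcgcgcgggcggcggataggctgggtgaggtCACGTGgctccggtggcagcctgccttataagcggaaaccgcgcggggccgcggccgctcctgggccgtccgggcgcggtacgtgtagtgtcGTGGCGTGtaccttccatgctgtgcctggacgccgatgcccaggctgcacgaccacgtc
Acly: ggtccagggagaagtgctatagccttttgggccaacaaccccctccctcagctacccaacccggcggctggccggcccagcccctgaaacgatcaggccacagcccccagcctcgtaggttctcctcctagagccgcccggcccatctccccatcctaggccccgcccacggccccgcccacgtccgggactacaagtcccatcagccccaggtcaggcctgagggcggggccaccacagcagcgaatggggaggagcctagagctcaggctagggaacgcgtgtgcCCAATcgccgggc
The windows lie at chr13:119690101-119690400 (plus strand, Hmgcs1), chr5:4104648-4104947 (minus strand, Cyp51), chr9:42264251-42264550 (minus strand, Sc5d), chr5:28071162-28071461 (plus strand, Insig1) and chr11:100527951-100528250 (minus strand, Acly). Hmgcs1 held 4 CCAAT matches, at -237, -176, -45 and 11 from the start, and a TCACNCCAC match at -137. Insig1, the feedback inhibitor, held a CACNCCAC match at -9 and an E-box at -101. Sc5d held an E-box at -98 and a CCAAT match at -24, Cyp51 a CCAAT match at -29 and Acly one at 38. Across the group, a CCAAT match was found in each of the 13 sterol enzyme genes with a window, in 13 of their 16 windows or 81.2%, against 37.4% of all 32851 windows. The GC box GGGCGG, a core of Sp1 sites that is not capitalised here, was in 81.2% of the same windows, against 35.7% of all windows and 57.9% of those of the genes tested. An E-box was in 18.8% of them, against 7.15% of all windows and 9.62% of those of the genes tested. TCACNCCAC was found in the Hmgcs1 window and in no other window of the group, and in 1.24% of all windows. The shorter CACNCCAC was in 6.45% of the windows of the group, against 6.24% of all windows and 6.61% of those of the genes tested. Mvk, Lss and Tm7sf2, whose levels over all the arrays did not follow the other sterol enzymes, held CCAAT matches too. Those of Mvk lay at -173, -120, -67, -50 and -14, that of Lss at -62 and that of Tm7sf2 at -47. Each printed window held GGGCGG, that of Acly at -117, -88, -76 and -27. Whether matches go with levels that move together was not tested. A match here is a description of the letters and not a measured binding site.

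Values are log2 levels of probe sets, so a difference of 1 is a factor of 2, and levels of different genes are not compared. Genotypes were compared over 13308 genes with limma, the experiment being a block, and an adjusted p under 0.05 after the Benjamini-Hochberg method was called. One Irak1-/- array, of experiment 3, stood apart from the rest, with correlations of 0.957 to 0.970 against 0.976 to 0.986 among the other 7 arrays. The mean level of CD4 T cell markers (7 tested of 8) was between 10.1 and 10.3 on every array. The 12 tested myeloid markers had means of 5.21 to 5.58 on wt and 6.32 to 6.90 on Irak1-/- arrays, 11 were higher in Irak1-/- cells and 4 were called. Means of B cell markers lay at 4.16 to 4.63, of NK and CD8 markers at 5.63 to 5.88 on wt and 5.54 to 5.68 on Irak1-/- arrays, and of epithelial and stromal markers at 4.83 to 5.21. Of the 6 NK and CD8 markers, 0 were called and 3 had an unadjusted p under 0.05, all lower in Irak1-/- cells. The other 3 were higher in Irak1-/- cells, by up to 0.31, so the list had no common direction. In sorted populations such as these, fewer cells of a type and less RNA per cell cannot be told apart. Irak1 itself had a mean level of 6.77 ± 0.33 on wt and 6.84 ± 0.17 on Irak1-/- arrays (SD, n = 4 each), so its probe set did not separate the genotypes. Which part of the gene was deleted is not stated in the labels, so this probe set checks no label.

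No member of the group was called between genotypes. Of 27 tested, 0 had an adjusted p under 0.05, beside 0.0751% of all genes tested. At an unadjusted p under 0.05 there were 2 (7.41%), Acly and Acaca, both lower in Irak1-/- cells, beside 6.7% of all genes. None moved the same way in all 4 pairs, which 14.2% of all genes did, and none had 4 wt arrays that did not overlap the 4 Irak1-/- arrays, which 3.04% of all genes had. These shares are near or under those of all genes. Differences (Irak1-/- minus wt) were above 0 for 11 and below 0 for 16 members with a median of -0.01, beside a median of -0.03 over all genes, of which 5570 were above and 7738 below 0. The 95% intervals of the 27 members ran from -0.66 to 0.62 at their ends, which is from 0.634 to 1.54 times the wt level. These are the outermost ends over all members, most intervals were narrower, and none is adjusted for the number of genes. The myeloid marker mean did not overlap between genotypes, and the NK and CD8 mean was lower on the Irak1-/- array of each pair. The part of either in these differences was not tested, since a myeloid term in the fit nearly stands for genotype.

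**Figure D1:**
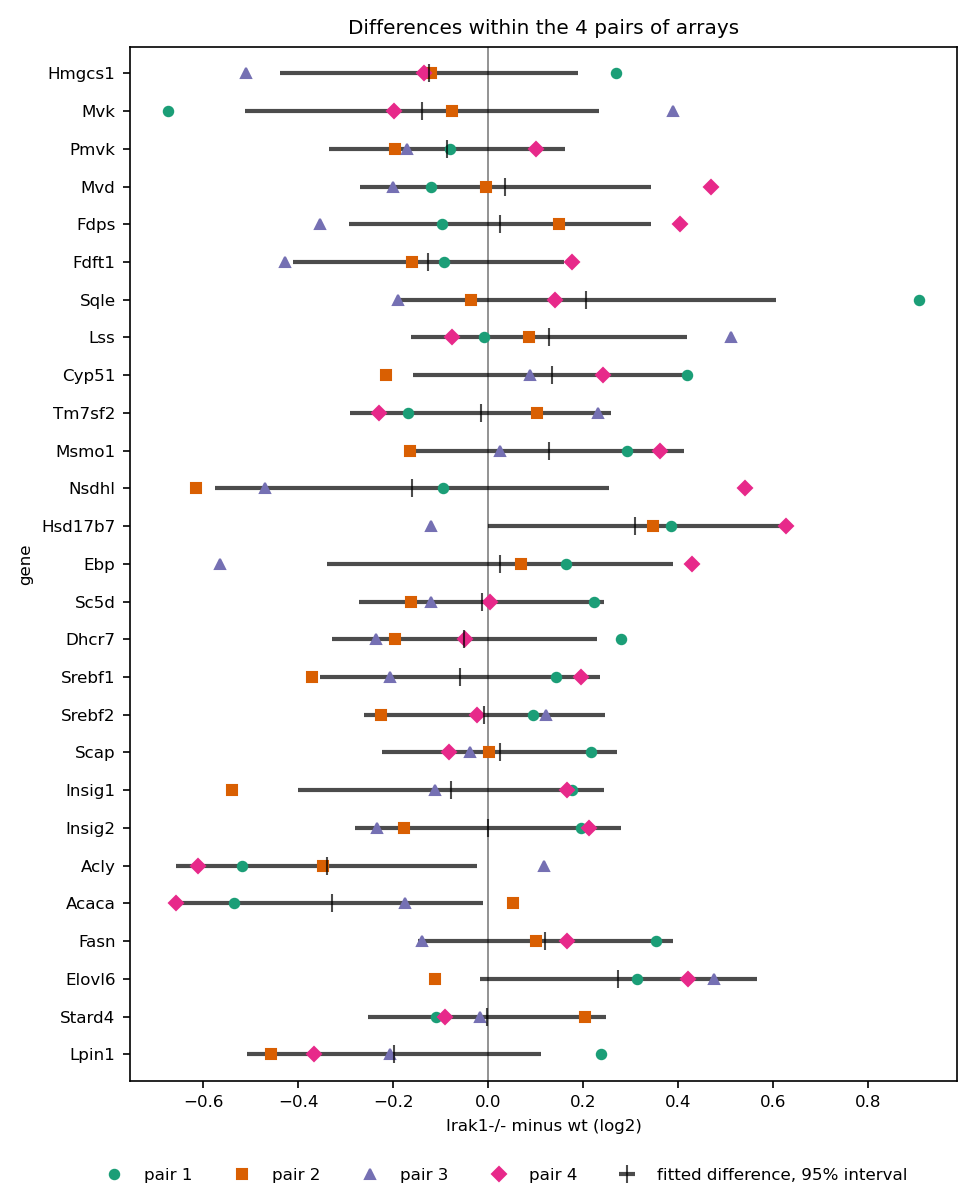
Irak1-/- minus wt (log2) for the 27 tested genes on the horizontal axis; coloured points are the 4 pairs, the vertical tick is the fitted difference and the bar its 95% interval from limma. No gene has all 4 pairs on one side of 0, and the intervals of Acly and Acaca alone leave out 0.

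The 16 enzymes of the cholesterol pathway showed no common direction between genotypes. Differences were above 0 for 8 and below 0 for 8, with a median of 0.0054 (median centring of the arrays gave -0.0034). The median difference within the pairs was 0.08, -0.10, -0.18 and 0.16 in experiments 1 to 4, so its sign changed from experiment to experiment. In the same order, 8, 5, 5 and 11 of the 16 enzymes were higher on the Irak1-/- array.

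In the mevalonate steps, Hmgcs1 makes the HMG-CoA that enters the pathway. On the wt arrays of experiments 1 to 4 it read 7.04, 6.75, 6.13 and 6.49, and on the Irak1-/- arrays 7.31, 6.63, 5.62 and 6.36. Both genotypes were highest in experiment 1 and lowest in experiment 3, and the genotypes overlapped. The fitted difference was -0.12 (SE 0.138, adjusted p = 0.936 in limma). Fdps, which joins isoprene units into farnesyl diphosphate, read 6.96, 6.23, 5.69 and 5.86 on wt and 6.86, 6.38, 5.34 and 6.26 on Irak1-/- arrays. It showed the same order of highest and lowest experiment, with a genotype difference of 0.03 (SE 0.140, adjusted p = 0.987 in limma). Mvk and Pmvk, the kinases that phosphorylate mevalonate, and Mvd, the decarboxylase that follows, had differences of -0.14, -0.09 and 0.04. Mvk was the one member of this step whose levels did not follow the others, at 4.75, 4.30, 3.91 and 4.60 on wt and 4.08, 4.22, 4.30 and 4.41 on Irak1-/- arrays. Its mean level of 4.32 was near the filter at 3.90, and the part of noise in this was not tested.

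Among the squalene and sterol steps, Sqle, the epoxidase that opens the sterol branch, read 6.51, 6.65, 6.22 and 6.08 on wt and 7.42, 6.61, 6.03 and 6.23 on Irak1-/- arrays. The Irak1-/- array of experiment 1 stood above the other 7, and the fitted difference of 0.21 (SE 0.176, adjusted p = 0.908 in limma) became -0.03 without that pair. Fdft1, squalene synthase, read 6.89, 6.74, 6.47 and 6.35 on wt and 6.80, 6.58, 6.04 and 6.53 on Irak1-/- arrays, with a difference of -0.13. Cyp51, which removes a methyl group from lanosterol, read 6.01, 6.20, 5.46 and 5.51 on wt and 6.43, 5.99, 5.55 and 5.75 on Irak1-/- arrays. Both genotypes were higher in experiments 1 and 2 than in 3 and 4, and the genotype difference was 0.13 (SE 0.129, adjusted p = 0.918 in limma). Sc5d, a late desaturase, read 7.48, 7.48, 6.93 and 7.19 on wt and 7.71, 7.32, 6.81 and 7.20 on Irak1-/- arrays, and its genotypes differed by -0.01.

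Hsd17b7, a ketoreductase of the demethylation steps, had the largest difference of the pathway enzymes. It read 4.47, 4.43, 4.48 and 4.11 on wt and 4.85, 4.77, 4.36 and 4.74 on Irak1-/- arrays, a mean level of 4.53 beside the filter at 3.90. The Irak1-/- array was higher in 3 of 4 pairs, by 0.31 in the fit (SE 0.137, adjusted p = 0.750 in limma), and its lowest wt array was that of experiment 4, without which the difference was 0.20. Nsdhl, which acts in the same steps, read 6.84, 6.99, 6.45 and 5.98 on wt and 6.74, 6.37, 5.98 and 6.52 on Irak1-/- arrays, and differed by -0.16 (SE 0.183), a value that was -0.0080 without experiment 2, -0.057 without experiment 3 and -0.39 without experiment 4. The last enzyme listed, Dhcr7, which reduces the final double bond to give cholesterol, was the flattest of the pathway enzymes, with a range of 0.38 over the 8 arrays. Differences of Lss, Tm7sf2, Msmo1 and Ebp, the remaining enzymes of these steps, were 0.13, -0.02, 0.13 and 0.02.

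None of the 5 regulators was called, and their differences lay between -0.08 and 0.02. Srebf2, the SREBP gene tied most to cholesterol synthesis, read 7.71, 7.79, 7.44 and 7.47 on wt and 7.80, 7.57, 7.56 and 7.44 on Irak1-/- arrays. Its whole range was 0.37, and the genotypes differed by -0.01, with a 95% interval of -0.26 to 0.25 (quantile normalization gave 0.0042). Insig1, both a target and an inhibitor of the SREBP factors, read 7.24, 7.10, 6.54 and 6.86 on wt and 7.41, 6.56, 6.42 and 7.03 on Irak1-/- arrays. It was highest in experiment 1 and lowest in experiment 3, and differed by -0.08 between genotypes (SE 0.142, adjusted p = 0.953 in limma). Srebf1, Scap and Insig2 differed by -0.06, 0.02 and -0.00032, and Scap by -0.05 when its probe sets were averaged.

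Acly and Acaca, both of fatty acid synthesis, had the largest differences of the group, both lower in Irak1-/- cells, and Elovl6 and Fasn had differences above 0. Acly, which cleaves citrate to give cytosolic acetyl-CoA, read 7.42, 7.05, 6.87 and 7.50 on wt and 6.90, 6.71, 6.99 and 6.88 on Irak1-/- arrays. It was lower on the Irak1-/- array in 3 pairs and higher in that of experiment 3. The fitted difference was -0.34 (SE 0.139, unadjusted p = 0.0383, adjusted p = 0.714 in limma), so it was not called, and leaving out 1 pair at a time gave -0.49 to -0.25. Acaca, which carboxylates acetyl-CoA to malonyl-CoA, read 6.01, 5.59, 5.78 and 5.37 on wt and 5.47, 5.64, 5.60 and 4.71 on Irak1-/- arrays. It was lower in 3 pairs, by -0.33 in the fit (SE 0.140, unadjusted p = 0.0441, adjusted p = 0.739 in limma), and leaving out 1 pair at a time gave -0.46 to -0.22. Elovl6, an elongase of the products of fatty acid synthase, read 6.12, 6.06, 5.91 and 5.95 on wt and 6.44, 5.94, 6.39 and 6.37 on Irak1-/- arrays. It was higher in 3 pairs, by 0.27 (SE 0.129, adjusted p = 0.778 in limma). Fasn, the fatty acid synthase, read 6.69, 6.54, 6.71 and 6.44 on wt and 7.04, 6.64, 6.57 and 6.61 on Irak1-/- arrays, a difference of 0.12 (SE 0.118). Scd1, a desaturase below the filter, had levels of 2.23 to 3.45 over the 8 arrays.

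Of the remaining members, Stard4, a carrier of cholesterol between membranes, read 6.62, 6.40, 6.33 and 6.19 on wt and 6.51, 6.61, 6.32 and 6.10 on Irak1-/- arrays and differed by -0.0029. Lpin1, a phosphatidate phosphatase of glycerolipid synthesis, read 5.93, 5.99, 6.11 and 6.54 on wt and 6.17, 5.54, 5.91 and 6.17 on Irak1-/- arrays. It was lower on 3 of 4 Irak1-/- arrays, by -0.20 (SE 0.136, adjusted p = 0.874 in limma).

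The cholesterol pathway enzymes tended to be high in experiment 1 in both genotypes. On Irak1-/- arrays their mean was lowest in experiment 3, and on wt arrays it was about as low in experiment 4 as in experiment 3. Experiment 1 had the highest mean of its arrays for 14 of the 16 enzymes, and experiment 3 the lowest for 12 (11 after median centring of the arrays). Their mean level was 6.07, 5.95, 5.65 and 5.64 on wt and 6.17, 5.88, 5.52 and 5.82 on Irak1-/- arrays. The mean over all genes tested was 6.01, 6.00, 5.97 and 5.97 on wt and 6.00, 5.96, 5.92 and 5.98 on Irak1-/- arrays. Counts of highest and lowest experiment over all genes are not given. The Irak1-/- array of experiment 3, which stood apart, was the lowest of 8 for 10 enzymes.

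**Figure D2:**
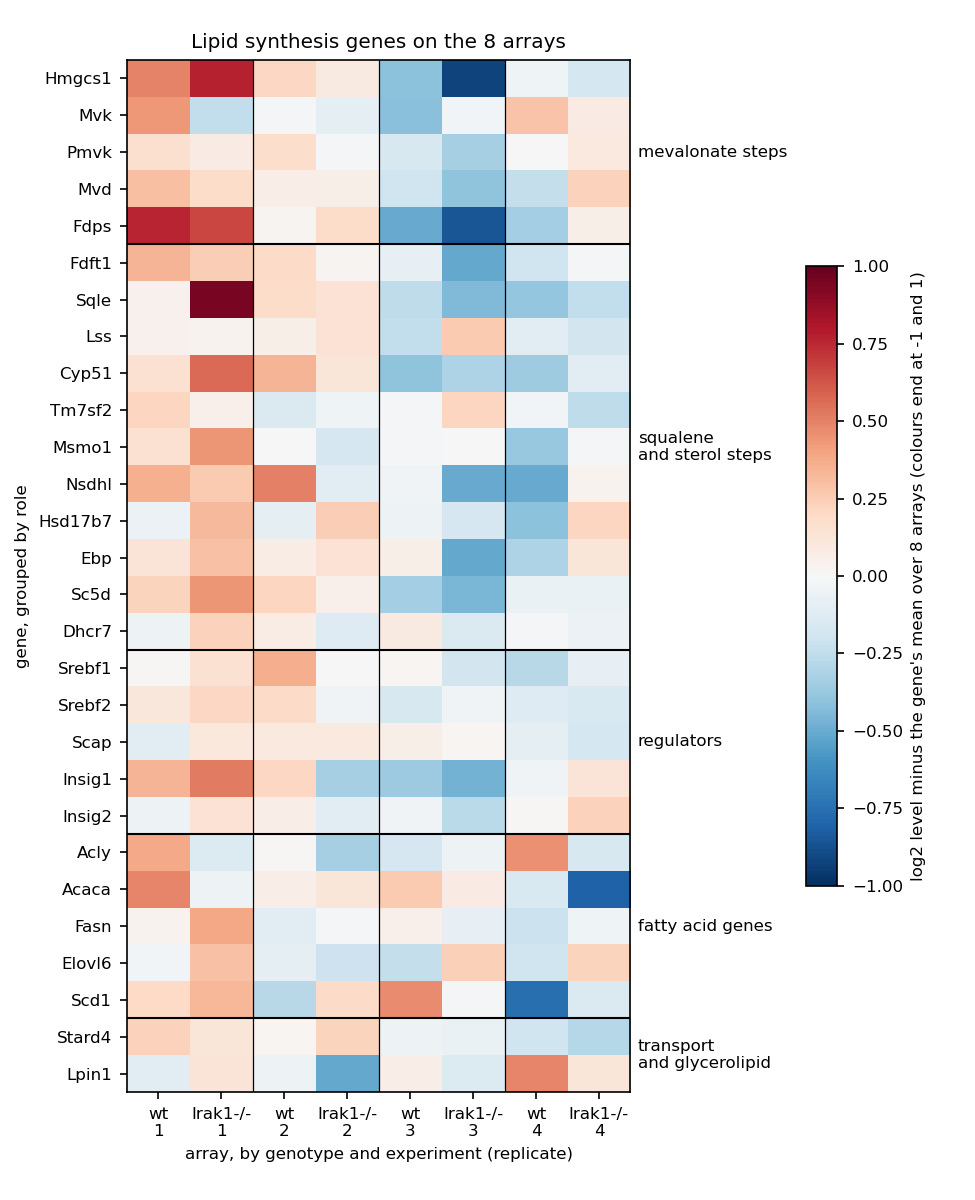
Log2 level of each of 28 genes minus its own mean over the 8 arrays, by colour, with genes in rows by role and arrays in columns by experiment. Most sterol enzymes are above their mean in both arrays of experiment 1 and below it in both arrays of experiment 3, while the fatty acid genes show no common order.

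The experiment terms of the same fit were tested for all genes, a comparison added after the data were seen. At an adjusted p under 0.05 it called 0 of 27 members and 0% of all genes, with a lowest adjusted p of 0.322 among members (limma). At an unadjusted p under 0.05 there were 8 members (29.6%) beside 9.66% of all genes. They were Fdps and Hmgcs1 (adjusted p = 0.322 for both in limma), Sc5d, Cyp51, Insig1, Acaca, Sqle and Fdft1. The mean of the wt and Irak1-/- arrays was 7.17 in experiment 1 and 5.87 in experiment 3 for Hmgcs1, 6.91 and 5.52 for Fdps, and 7.33 and 6.48 for Insig1. Acaca had another order, with 5.74, 5.61, 5.69 and 5.04 in experiments 1 to 4. Without the Irak1-/- array of experiment 3 the count was 7. Experiments differ in recipients, cells and whatever else the batch label stands for, which cannot be told apart. The error in the test between experiments was the spread within pairs, and both arrays of a pair share hosts and batch. Its p-values therefore measure no spread between repeats of an experiment. Members that vary together are not separate results in its counts.

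Proliferation genes varied with the same experiments. The mean of 25 cell cycle genes was 8.39, 8.47, 8.05 and 8.02 on wt and 8.60, 8.20, 7.67 and 8.03 on Irak1-/- arrays, and 18 of them had an unadjusted p under 0.05 between experiments. Its Pearson r with the sterol enzyme mean was 0.94 over the 8 arrays (Spearman rho 0.95) and 0.86 without the 2 arrays farthest from the median, where arrays of a pair share hosts and batch. With the cell cycle mean as a term, 2 members rather than 8 had an unadjusted p under 0.05 between experiments. That mean itself varied with the experiments, and so takes up part of the same terms. A lower count can follow from this alone, no count over all genes is given for this fit, and a cause was not tested. Within pairs, the median cell cycle difference was 0.22, -0.28, -0.44 and 0.04 in experiments 1 to 4, beside 0.08, -0.10, -0.18 and 0.16 for the sterol enzymes.

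**Figure D3:**
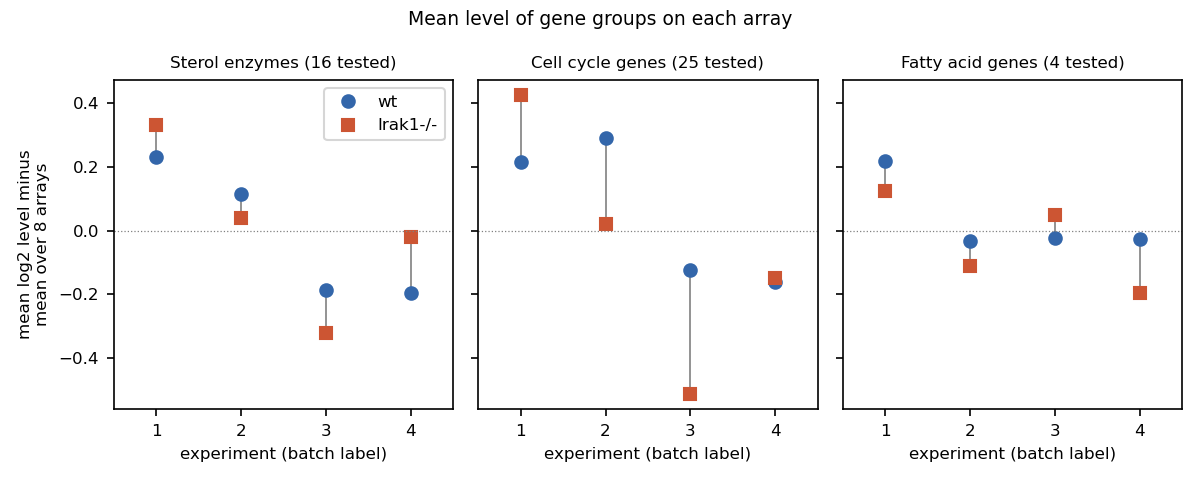
Mean log2 level of each gene group on each array, minus its mean over the 8 arrays, by experiment; circles are wt and squares Irak1-/- arrays, joined within a pair. Sterol enzymes and cell cycle genes are highest on the Irak1-/- array of experiment 1 and lowest on that of experiment 3, and fatty acid genes vary less and in another order.

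Across the 8 arrays the sterol enzymes varied together. The median Pearson r over their 120 pairs of genes was 0.53, with 80% of pairs above 0 and 20% at or above 0.8, while all genes tested had a median of 0.02 and 1.78% at or above 0.8. By role, the median was 0.80 among the 5 mevalonate genes, 0.53 among the 11 squalene and sterol genes, 0.47 among the 5 regulators and -0.03 among the 4 fatty acid genes. With experiment and genotype means removed it was 0.17 for the mevalonate genes and 0.42 for the squalene and sterol genes, and without the Irak1-/- array of experiment 3 it was 0.63 and 0.60. For the sterol enzymes together it was 0.57 without the Irak1-/- array of experiment 3, and 0.39 with experiment and genotype means removed, where all genes had 0.02. On that last scale 23.3% of the sterol enzyme pairs were at or above 0.8, beside 10.9% over all genes. The 2 arrays of an experiment mirror each other there, so a high r is more common among any genes. Over the 8 arrays the 25 cell cycle genes had a median of 0.87, higher than any role here. Genes are not independent replicates, and these values describe 8 arrays that share hosts in pairs.

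Within the pathway, each gene was set against the mean of the other sterol enzymes. Over the 8 arrays Fdps (r = 0.95), Sc5d (0.95), Fdft1 (0.92), Hmgcs1 (0.92) and Cyp51 (0.91) followed that mean most closely. With experiment and genotype means removed they had 0.59, 0.65, 0.90, 0.55 and 0.61 in the same order. Shares of all genes, the enzymes among them, were taken against the mean of all 16 enzymes. An r at least that of Fdps was reached by 0.45% over the 8 arrays, and by 28.7% with those means removed. Over the 8 arrays and against the mean of the others, 8 of the 16 enzymes reached 0.8, and 6 did without the 2 arrays farthest from the median. Mvk (0.02), Lss (0.04), which closes the ring to form lanosterol, and Tm7sf2 (-0.08), a sterol reductase, had values near 0, which without the 2 farthest arrays were 0.36, 0.69 and 0.28. Of the regulators, Insig1 had 0.85, Srebf2 0.78, Srebf1 0.66, Insig2 0.51 and Scap 0.17. Values at least as high were reached by 3.73%, 7.63%, 15.3%, 25.4% and 49% of all genes. Without the 2 farthest arrays the 5 regulators had 0.66, 0.83, 0.54, -0.09 and -0.01 in the same order. Their values were 0.74, 0.09, 0.91, 0.98 and 0.18 with experiment and genotype means removed. On that scale values at least as high were reached by 19.1%, 53.6%, 6.87%, 1.35% and 49.3% of all genes. Their order thus depended on the scale. Of the fatty acid genes, Fasn had 0.65, which was 0.30 without the 2 farthest arrays, Elovl6 0.21, Acaca 0.13 and Acly -0.02. The value of Fasn over the 8 arrays was reached by 15.9% of all genes. Stard4 had 0.61, which 18.8% of all genes reached, and Lpin1 -0.17. After removal of experiment and genotype means, Fasn had 0.76, Elovl6 0.28, Acaca -0.90, Acly -0.89, Stard4 -0.63 and Lpin1 0.26.

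**Figure D4:**
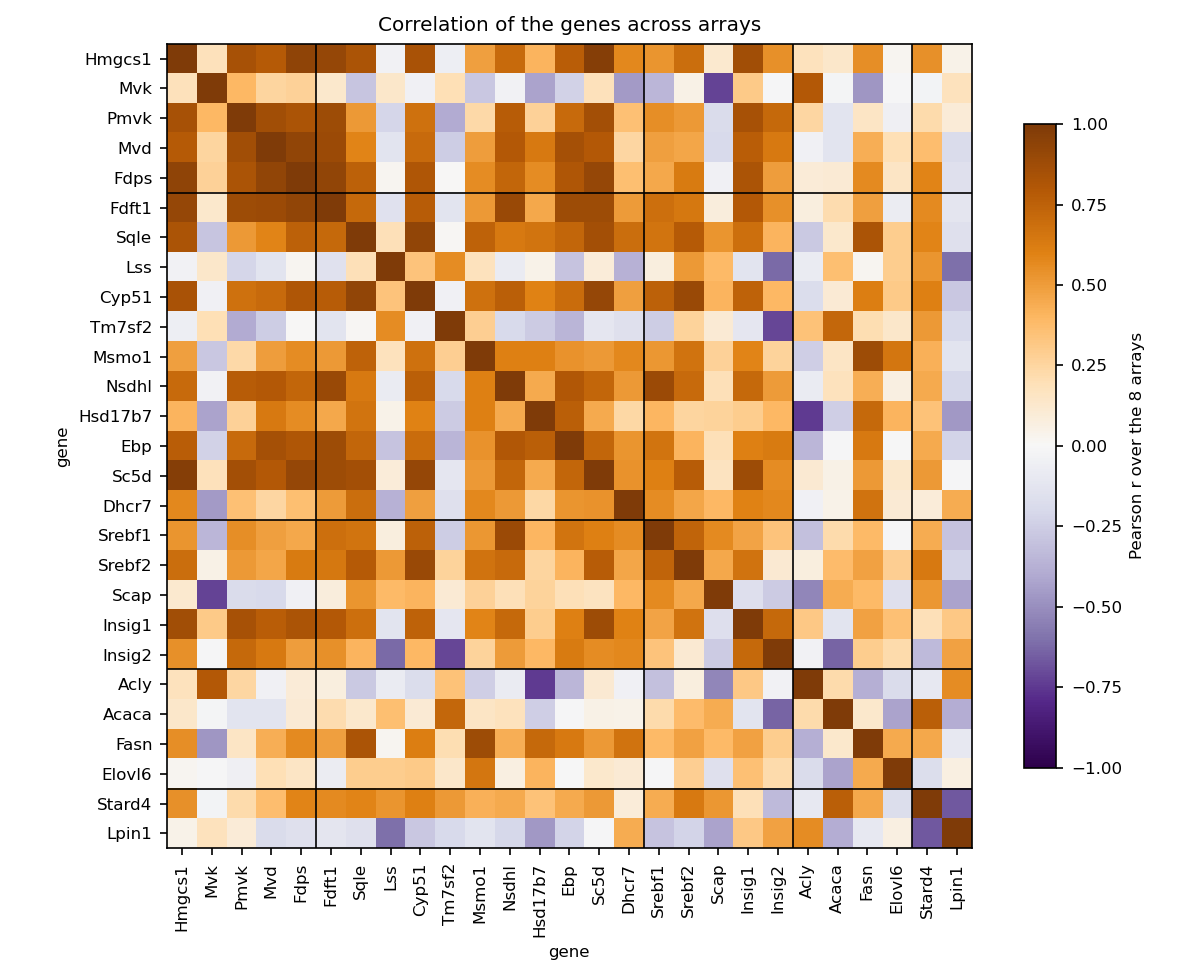
Pearson r over the 8 arrays between each pair of the 27 tested genes, by colour, with black lines between roles. Most mevalonate and sterol genes form a block of positive r that takes in Insig1, while Mvk, Lss, Tm7sf2, Acly and Lpin1 stand outside it.

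Beyond the group, 47 further genes of lipid metabolism were listed by function, of which 42 were found and 40 tested. None was called, 19 differences were above and 21 below 0, and 3 stood at an unadjusted p under 0.05, of which 1 was higher and 2 were lower in Irak1-/- cells, beside 6.7% of all genes. In 7 of the 40 all 4 pairs had the same sign and in 4 the genotypes did not overlap, beside 14.2% and 3.04% of all genes. The largest was Acss2, which makes acetyl-CoA from acetate and is a known SREBP target. It read 6.30, 6.39, 6.42 and 6.26 on wt and 5.82, 5.93, 5.59 and 5.89 on Irak1-/- arrays, so the genotypes did not overlap and the Irak1-/- array was lower in 4 of 4 pairs. The fitted difference was -0.53 (SE 0.118, 95% interval -0.80 to -0.27), with an adjusted p of 0.316 in limma (0.131 to 0.971 over the alternatives). Hsd17b12, of very long chain fatty acid elongation, read 6.66, 6.60, 6.61 and 6.52 on wt and 7.02, 6.88, 6.69 and 6.92 on Irak1-/- arrays. It did not overlap either and was higher in 4 of 4 pairs, by 0.28 (SE 0.110, adjusted p = 0.699 in limma). Mylip, a ligase induced by liver X receptors that marks lipoprotein receptors for breakdown, was lower in 4 of 4 pairs, by -0.28 (SE 0.119, adjusted p = 0.740 in limma). Mid1ip1, which promotes the activity of acetyl-CoA carboxylase, was lower in 4 of 4 pairs too, by -0.24 (SE 0.113, adjusted p = 0.778 in limma). The value for Mid1ip1 was -0.065 when its probe sets were averaged, -0.16 without experiment 3, and -0.088 with no replicate block and without the Irak1-/- array of that experiment.

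The other further genes named by rule had smaller differences and were not called. Mbtps1 and Mbtps2, the proteases that release the SREBP factors, differed by 0.04 and 0.09. Among genes of sterol sensing and efflux, the liver X receptor gene Nr1h3 differed by -0.24 and the efflux transporter gene Abca1 by -0.14. In the isoprenoid branch, Pdss2, Dhdds and Aacs differed by -0.16, 0.14 and -0.12. Pdss2 was lower in 4 of 4 pairs and its genotypes did not overlap (SE 0.108, adjusted p = 0.879 in limma). Among genes of fatty acid oxidation, Cpt1a, which admits fatty acids to mitochondria, differed by -0.16, Acaa2 by -0.13 and Hadhb by 0.20.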

How the data were processed

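Log2 levels per probe set were deposited by the authors for 8 Affymetrix arrays, 4 wt and 4 Irak1-/-, prepared from TRIzol RNA with biotin label by the standard protocol, per the labels. How the probe intensities were corrected, summarized and normalized is not given in the labels or the file. Deposited values spanned 0.681 to 14.0, with medians of 4.25 to 4.31 per array. Of 41345 probe sets, 23521 had 1 symbol in the platform annotation, 1814 had several and 16010 were unnamed here. Of those with 1 symbol, 23328 were matched by gene identifier and given the current symbol, whether or not it differed.

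For each gene the probe set with the highest mean was kept, and genes under the 40th percentile of mean level (under 3.90) were left out, leaving 13308. Limma 3.58.1 in R 4.3.3 (lmFit, eBayes) fitted experiment and genotype, two-sided, with Benjamini-Hochberg adjustment over all genes tested. The pairing comes from the batch label, since the arrays of a pair share pooled recipients. The tests were checked on simulated data. Alternatives covered normalization, filter, probe set, moderation, block, left-out arrays and covariates.

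The members and lists were chosen with earlier results of these data known. Named were all members found, Irak1, and per further lipid group up to 3 genes with the smallest p. Counting depth does not exist for arrays, so their number limits the precision.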

Additional observations from a re-analysis of the deposited data

Results flagged for a closer look

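In 5 of 84 groups of 4 arrays (42 genes in each genotype), the highest or lowest array lay farther from its nearest neighbour, as a share of the group's range, than Dixon's test allows at 95%. Chance gives about 1 in 20 groups, so this number is near what chance gives. Hsd17b7 was lowest on the wt array of replicate 4, at 4.11 beside 4.43 to 4.48 on the other wt arrays (gap ratio 0.861). Ebp was lowest on the same array, at 6.47 beside 6.84 to 6.91 (gap ratio 0.830). Fasn was highest on the Irak1-/- array of replicate 1, at 7.04 beside 6.57 to 6.64 (gap ratio 0.856). Elovl6 was lowest on the Irak1-/- array of replicate 2, at 5.94 beside 6.37 to 6.44 (gap ratio 0.869). Mbtps2 was highest on the Irak1-/- array of replicate 1, at 5.94 beside 5.74 to 5.77 (gap ratio 0.849).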

How the results depend on the processing

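Of the 27 members, 0 were called between genotypes under each alternative run, and the lowest adjusted p of a member was 0.454 (Acly without replicate 3). The count of all genes called, 10 in the fit with the experiment as a block, was 11 with no replicate block, that is without the pairing, 16 with a random block, 16 with median centring and 16 with eBayes trend and robust. It was 0 with the myeloid mean as a covariate and 7 to 17 without 1 replicate (17 without replicate 1). The myeloid mean does not overlap between genotypes and so nearly stands for genotype, which makes the values of that fit unstable (Sqle 2.03, Mvk -1.64) and uninformative about the members. The cause of the other changes was not tested. In all, 59 values of single genes, none of them called, took the other sign, in 19 of the 27 members (each with a reported difference of at most 0.21 in size) and in some further genes. Signs changed as follows (Irak1-/- minus wt, log2). With the myeloid mean as a covariate the values were Hmgcs1 1.00, Mvd -0.34, Fdps -0.15, Fdft1 0.019, Lss -0.34, Sc5d 0.56, Dhcr7 0.79, Srebf1 0.36, Srebf2 0.13, Insig1 0.38, Insig2 0.49, Lpin1 0.83, Dhdds -0.48 and Acaa2 0.66. With the cell cycle mean as a covariate they were Sc5d 0.051, Dhcr7 0.039, Srebf1 0.032, Srebf2 0.0062, Insig1 0.018 and Insig2 0.089. With no replicate block and without the Irak1-/- array of replicate 3 they were Hmgcs1 0.16, Pmvk 0.010, Fdft1 0.023, Sc5d 0.14, Srebf2 0.0028, Insig1 0.067, Insig2 0.088, Stard4 0.018 and Hadhb -0.058. Quantile normalization gave Srebf2 0.0042, and the mean of its probe sets Scap -0.050. Without 1 replicate in turn, ranges were Hmgcs1 -0.26 to 0.0047, Mvk -0.32 to 0.038, Mvd -0.11 to 0.12, Fdps -0.10 to 0.15, Sqle -0.028 to 0.34, Tm7sf2 -0.10 to 0.055, Ebp -0.11 to 0.22, Sc5d -0.093 to 0.036, Dhcr7 -0.16 to 0.012, Srebf1 -0.14 to 0.044, Srebf2 -0.052 to 0.064, Scap -0.040 to 0.060, Insig1 -0.16 to 0.077, Insig2 -0.071 to 0.077, Stard4 -0.072 to 0.032, Mbtps2 -0.025 to 0.16, Mbtps1 -0.10 to 0.16, Abca1 -0.23 to 0.0033, Acaa2 -0.25 to 0.012 and Hadhb -0.023 to 0.52. Among members that kept their sign, ranges were wide for Cyp51 (0.039 to 0.25), Msmo1 (0.051 to 0.23), Nsdhl (-0.39 to -0.0080), Hsd17b7 (0.20 to 0.45) and Fasn (0.042 to 0.21). Between experiments, 2 members rather than 8 had an unadjusted p under 0.05 with the cell cycle mean as a covariate, and 7 to 9 did without 1 replicate. The cell cycle mean itself varied with the experiments, so the lower count shows no cause. The median r among sterol enzymes was 0.392 with experiment and genotype means removed, and 0.53 to 0.62 otherwise. Intervals rest on 4 pairs, which limits the precision.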
